A study of Mus musculus with 24 samples.

Results

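Chromatin accessibility of calf muscles was compared with that of thigh muscles in male FVB/NJ mouse embryos at stage E18.5, just before birth. The comparison used 12 of the 24 ATAC-seq libraries of the series, chosen by their labelled stage and muscle alone. ATAC-seq reports open chromatin, where the Tn5 transposase can insert sequencing adapters into DNA. The calf side held 3 libraries of soleus and 3 of gastrocnemius, and the thigh side held 3 of vastus intermedius and 3 of vastus lateralis. Soleus and vastus intermedius are slow-biased, rich in slow-contracting fibres, and gastrocnemius and vastus lateralis are fast-biased, so each side held 1 muscle of each kind. Each E18.5 library pooled the left and right muscles of up to 5 male embryos of 1 litter, and the same 3 litters gave all 4 muscles. No genotype, agent or time differed between the sides. The 12 adult libraries came from the same muscles of 3 male FVB/NJ mice, which had been obtained at 3 to 4 months of age, and serve below to look again at the sites named at E18.5.

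The values are peak calls. Each deposited list holds chromosome, start and end of the peaks called in 1 library on the mouse mm10 build, with no score or signal. A site is thus either called or not called, and chromatin without a call can still be open. The lists held 129754, 228137 and 120387 peaks in soleus and 211354, 176112 and 134814 in gastrocnemius. They held 175295, 204599 and 142580 in vastus intermedius and 163704, 149346 and 178191 in vastus lateralis (litters 1 to 3). Calf lists averaged 166760 ± 45571 peaks and thigh lists 168952 ± 22377 (SD, n = 6 each), a difference of -2193 in a two-sided exact permutation test with p = 0.911. Depth in reads was not given, so list length was the only measure of depth. Nuclei came from undigested tissue, so all cell types in the tissue add to the calls, and fewer cells of a type cannot be told apart from less access in each cell. All 7 skeletal muscle marker loci, each the gene body with 10 kb on each side, held at least 1 called region in every library. With windows of that size and lists of this length, such calls cannot show which tissue was present. Their summed called regions ranged from 31 to 51 in calf and from 31 to 38 in thigh libraries.

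The muscles compared lie at different positions of the hindlimb. Soleus and gastrocnemius flex the foot downward and derive from the ventral muscle mass of the limb bud, while the vasti extend the knee and derive from the dorsal mass. Calf against thigh therefore joins distal against proximal with ventral against dorsal, and these cannot be told apart here. Limb position is laid down in the bud by Hox genes of the posterior paralog groups and by signalling around them. The group 11 genes (Hoxa11, Hoxc11, Hoxd11) pattern the middle segment of the mouse limb, which in the hindlimb is the shank, and group 13 patterns the foot. Isl1 (a LIM homeodomain factor) acts in starting the hindlimb bud, Hand2 (a basic helix-loop-helix factor) acts in its posterior part upstream of sonic hedgehog, and Grem1 (a secreted BMP antagonist) and Gli3 (a hedgehog effector) act in the signalling of the bud. Connective tissue cells of muscle are known to keep part of this Hox code after muscles have formed.

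Across the whole genome no site passed a test adjusted for all sites, so what follows describes named loci beside the share of all sites that reached the same unadjusted level. Among limb position genes, promoter calls differed at the unadjusted level at the first listed start of Hoxd11 and at the starts of Hoxd12 and Hand2. These promoter windows, which run from 250 bases before to 50 bases after the first base of the gene, are shown because the calls over them differ between the sides (RefSeq, GRCm38.p6, plus strand). The windows are chr2:74679308-74679607 for Hoxd11, chr2:74674763-74675062 for Hoxd12 and chr8:57320733-57321032 for Hand2. Capitals mark matches to TAATTA, the core letters of many homeodomain sites, and to GGGCGG, the GC box, on either strand.
Hoxd11: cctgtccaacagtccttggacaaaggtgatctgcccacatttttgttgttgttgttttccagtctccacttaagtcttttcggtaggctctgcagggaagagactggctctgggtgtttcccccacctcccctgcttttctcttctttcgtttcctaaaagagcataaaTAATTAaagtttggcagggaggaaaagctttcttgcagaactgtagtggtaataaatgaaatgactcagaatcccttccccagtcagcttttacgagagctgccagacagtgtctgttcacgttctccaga
Hoxd12: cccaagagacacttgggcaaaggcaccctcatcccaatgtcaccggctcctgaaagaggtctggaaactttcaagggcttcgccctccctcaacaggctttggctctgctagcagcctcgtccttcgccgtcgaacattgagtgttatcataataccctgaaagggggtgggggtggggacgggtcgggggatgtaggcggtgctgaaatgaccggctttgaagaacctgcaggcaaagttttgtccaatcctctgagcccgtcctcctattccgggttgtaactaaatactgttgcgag
Hand2: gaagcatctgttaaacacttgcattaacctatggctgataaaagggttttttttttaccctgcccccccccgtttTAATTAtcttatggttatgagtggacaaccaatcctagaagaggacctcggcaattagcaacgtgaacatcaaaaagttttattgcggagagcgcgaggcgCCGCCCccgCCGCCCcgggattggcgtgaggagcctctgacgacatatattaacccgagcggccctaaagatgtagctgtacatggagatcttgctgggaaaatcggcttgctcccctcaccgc
Counted from the first base of the gene, the Hoxd11 window held TAATTA at -81, and the Hand2 window held it at -175, with GC boxes at -74 and -65. The Hoxd12 window held neither motif, nor did any of the 3 windows hold CAGCTG (the E-box core bound by myogenic factors) or TATAAA (the TATA box). Of 32851 RefSeq windows of this length, 5.29% held TAATTA, 35.7% GGGCGG, 16.3% CAGCTG and 13.6% TATAAA. GC content was 45.7% in the Hoxd11, 55.0% in the Hoxd12 and 50.3% in the Hand2 window.

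The window at the first listed start of Hoxd11 was the single one called in 6 of 6 calf and 0 of 6 thigh libraries. A later start of the same gene was covered by a peak in every library of both sides, so Hoxd11 was not without an open start in thigh. Peaks covered 300, 206 and 57 of its 300 bases in soleus and 299, 300 and 300 in gastrocnemius (litters 1 to 3), against 0 in each of the 6 thigh libraries. The groups did not overlap. The edge of the window bears on this count: in vastus intermedius 1 and in vastus lateralis 3 a peak began 50 bases past the first base of the gene, just outside the window, and in vastus intermedius 3 the nearest peak began 762 bases past it. In the other thigh libraries the nearest peak lay 1922, 2279 and 2148 bases away. Within 1 kb on each side of the start, peaks covered 671 ± 204 bases in calf and 202 ± 251 bases in thigh libraries (SD, n = 6 each), with a peak in 6 calf and 3 thigh libraries. The merged region over this start was called in 6 calf and 2 thigh libraries, which did not reach an unadjusted p under 0.05.

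Hoxd12, the neighbouring gene whose start lies at -4.545 kb relative to that of Hoxd11, showed the opposite pattern in its promoter window. Peaks covered 0, 204 and 0 bases of its window in soleus and 0 bases in each gastrocnemius library, against 153, 50 and 300 bases in vastus intermedius and 193, 171 and 300 in vastus lateralis. Only soleus 2, the longest list, called the window among calf libraries, and its value lay within the thigh range. All but 1 of the calf libraries had a peak within 1 kb of the start, which mostly began just downstream of it, at 67 to 370 bases. The difference is thus partly one of where the peak begins. The width of the nearest peak differed as well, at 204 to 792 bp in these calf libraries and 332 to 1384 bp in thigh libraries, with overlap. The narrowest nearest peak on each side had a further peak beside it. In the merged region over this site, soleus 2 thus had 1201 covered bases and vastus intermedius 2 had 738. Within 1 kb the covered length was 620 ± 420 bases in calf and 1181 ± 227 in thigh libraries, and the merged region over this site was called in 5 calf and 6 thigh libraries. With equal numbers of peaks taken from each list, either the widest or the first 120387, Hoxd11 remained at 6 calf and 0 thigh calls and Hoxd12 was at 0 calf and 6 thigh calls.

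**Figure D1:**
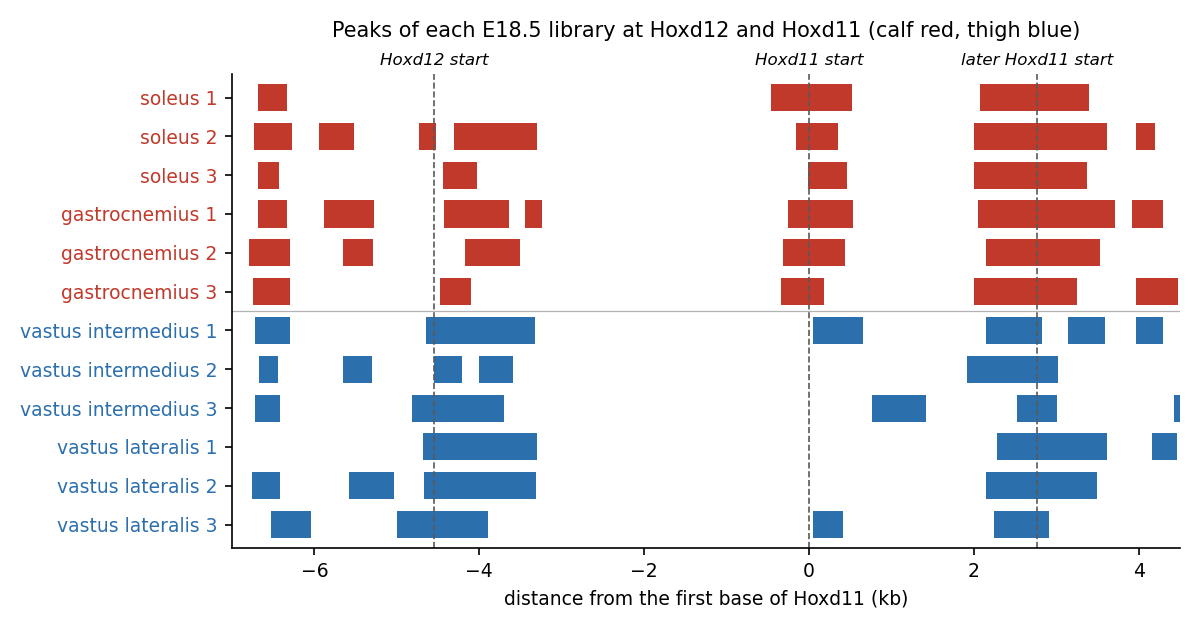
Peaks of the 12 E18.5 libraries around Hoxd12 and Hoxd11, with distance from the first base of Hoxd11 in kb on the horizontal axis and 1 line per library, calf in red above thigh in blue; bars are called peaks and dashed lines gene starts. All 6 calf libraries have a peak over the Hoxd11 start at 0, which no thigh peak covers, and the 6 thigh libraries have a peak over the Hoxd12 start.

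The other starts in the posterior Hoxd cluster did not separate the sides. Windows at Hoxd13, at a later start of Hoxd11 (2.765 kb downstream), at Hoxd10 and at Hoxd9 were called in 6 calf and 6 thigh libraries each, and Hoxd8 in 6 calf and 4 thigh libraries. In the adult the Hoxd11 window was called in 0 of 6 calf and 1 of 6 thigh libraries and the Hoxd12 window in 1 and 1, so neither difference was seen there. Over the whole cluster (chr2:74658225-74775142, 35 regions) libraries called 23.7 ± 4.76 regions in calf and 20.8 ± 2.23 in thigh. Counted over the gene body with 10 kb on each side, Hoxd11 averaged 7.17 called regions in calf and 5.83 in thigh libraries, and Hoxd12 6.67 and 5.67. The Hoxd12 locus thus did not follow its promoter window, and neither locus reached an unadjusted limma p under 0.05.

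The promoter window of Hand2 was covered by 300, 274 and 136 bases of peak in soleus and 300 bases in each gastrocnemius library, against 0 bases in 5 thigh libraries and 291 in vastus lateralis 1. Vastus lateralis 1 therefore overlapped the calf range. Within 1 kb of the start the covered length was 1248 ± 362 bases in calf and 369 ± 539 in thigh libraries. The window overlaps that of Hand2os1, an RNA gene transcribed the other way from the same place, so the calls belong to both. In the adult it was called in 0 of 6 calf and 0 of 6 thigh libraries.

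In all, 1551 promoter windows had enough calls to reach p under 0.05 in a two-sided Fisher's exact test of 6 calf against 6 thigh libraries. Of these, 21 windows of 20 genes (1.35%) were called more often in calf and 2 (0.129%) more often in thigh at that unadjusted level, and 0 in either direction (0%) after adjustment, with a smallest adjusted p of 1. Calf windows numbered 29 without litter 1, 10 without litter 2 and 26 without litter 3, and thigh windows 6, 3 and 1. Hoxd11 had a raw Fisher's exact p of 0.00216, and Hoxd12 and Hand2 had 0.0152 each. Hoxd12 and 4930447K03Rik were the 2 thigh windows. The calf windows at 6 against 1 calls included Slc27a1 (a fatty acid transport protein), Lpar5 (a lysophosphatidic acid receptor) and Npffr2 (a neuropeptide FF receptor). Those at 5 against 0 included Uncx and Fev (transcription factors), Klhl1 and Hrc (a calcium-binding protein of the sarcoplasmic reticulum, called in 6 of 6 adult libraries on each side). The promoter windows were examined after the peaks had been seen, and Hoxd11, Hoxd12 and Hand2 were singled out from their values.

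Libraries called 16837 ± 1130 promoter windows in calf and 16302 ± 786 in thigh (SD, n = 6 each), a difference of 534.5 that did not pass an exact permutation test (two-sided p = 0.364, or 0.157 within litters). With the same number of widest peaks from every list the difference was 566 windows, with an exact permutation p of 0.0185 within litters and 0.188 without regard to litter. Among 89 windows of limb position genes, 22 (24.7%) were called by more calf than thigh libraries and 9 (10.1%) by more thigh than calf libraries. Over all windows these shares were 14.4% and 9.48%. The shares count windows that no library called, which were 9 of the 89 and 10364 of all 32851. Such windows are a larger part of the whole set and lower its shares, so the 2 sets are not directly comparable.

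Whole gene loci were compared next, each being the gene body with 10 kb on each side. A region is a merged peak called in at least 2 of the 12 libraries, and the number of called regions at a locus was tested with limma on log2(regions + 1), relative to the library mean. Of 26208 loci, 616 (2.35%) were higher in calf and 544 (2.08%) higher in thigh at an unadjusted p under 0.05, and 0 in either direction (0%) after Benjamini-Hochberg adjustment, where the smallest adjusted p was 0.837. The unadjusted level below means an unadjusted limma p under 0.05 at a locus, and each locus called higher or lower in calf or thigh reached it unless stated otherwise. Without the centring on the library mean the split was 412 against 225 loci, and without litter 2 it was 395 against 450. The difference was above 0 at 49.6% of all loci. At 2 loci in each direction (0.00763% each) the counts of the 6 calf and 6 thigh libraries did not overlap, and 2 of these 4 loci were limb genes, Isl1 in calf and Hoxc9 in thigh. The others were Ubr7 (a member of the UBR ubiquitin ligase family) in calf and Manf (a neurotrophic factor of the endoplasmic reticulum) in thigh.

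Isl1 (chr13:116298270-116309688) had 3, 4 and 5 called regions in soleus and 3, 4 and 3 in gastrocnemius, against 1, 2 and 2 in vastus intermedius and 1, 1 and 2 in vastus lateralis. Every calf library was above every thigh library. The log2 difference was 0.89 (SE 0.23, limma adjusted p = 0.993), with 0.99, 0.82 and 0.84 within litters 1, 2 and 3. With the litter as a block the adjusted p was 0.476. The difference reached the unadjusted level in all 11 alternative settings tried for single loci.

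The promoter of Isl1 did not take part in this difference, since its window was called in 6 calf and 6 thigh libraries. The difference lay in the gene and past its end. A region at chr13:116302570-116303659, inside the gene with its middle 6.574 kb from the first base, was called in 5 calf and 0 thigh libraries, with 465, 804 and 354 covered bases in soleus and 0, 559 and 269 in gastrocnemius. Another at chr13:116297022-116297819, with its middle 12.268 kb from the first base and past the gene's end, was also called in 5 calf and 0 thigh libraries, with 698, 333 and 469 bases in soleus and 598, 0 and 336 in gastrocnemius. Different gastrocnemius libraries lacked these calls. In adult muscles the first was called in 1 of 6 calf and 1 of 6 thigh libraries and the other in 0 and 0, and the locus difference was 0.25 on the log2 scale (SE 0.33).

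Hand2 (chr8:57320983-57324517) had 6, 6 and 6 called regions in soleus and 5, 5 and 5 in gastrocnemius, against 3, 3 and 2 in vastus intermedius and 4, 5 and 3 in vastus lateralis. Vastus lateralis 2 reached the gastrocnemius level, and the other thigh libraries were below every calf library. The log2 difference was 0.59 (SE 0.17, limma adjusted p = 0.993). It was larger between the slow-biased muscles, at 0.99 for soleus minus vastus intermedius, than between the fast-biased ones, at 0.19 for gastrocnemius minus vastus lateralis, an interaction that reached the unadjusted level. Beside the promoter, a region at chr8:57312089-57313229 in Hand2os1, with its middle at -8.324 kb relative to the Hand2 start, was called in 6 calf libraries and in vastus lateralis 1. It held 341 to 1117 covered bases in calf libraries and 288 in vastus lateralis 1.

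Adult muscles gave Hand2 the same direction. The locus averaged 3.67 ± 1.37 called regions in adult calf and 1.5 ± 0.837 in adult thigh libraries, a log2 difference of 0.89 (SE 0.18, limma adjusted p = 0.526). The upstream region was called in 2 adult calf and 0 adult thigh libraries. A downstream region at chr8:57331776-57332826, called in 6 calf and 2 thigh libraries at E18.5, was called in 4 adult calf and 1 adult thigh libraries.

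**Figure D2:**
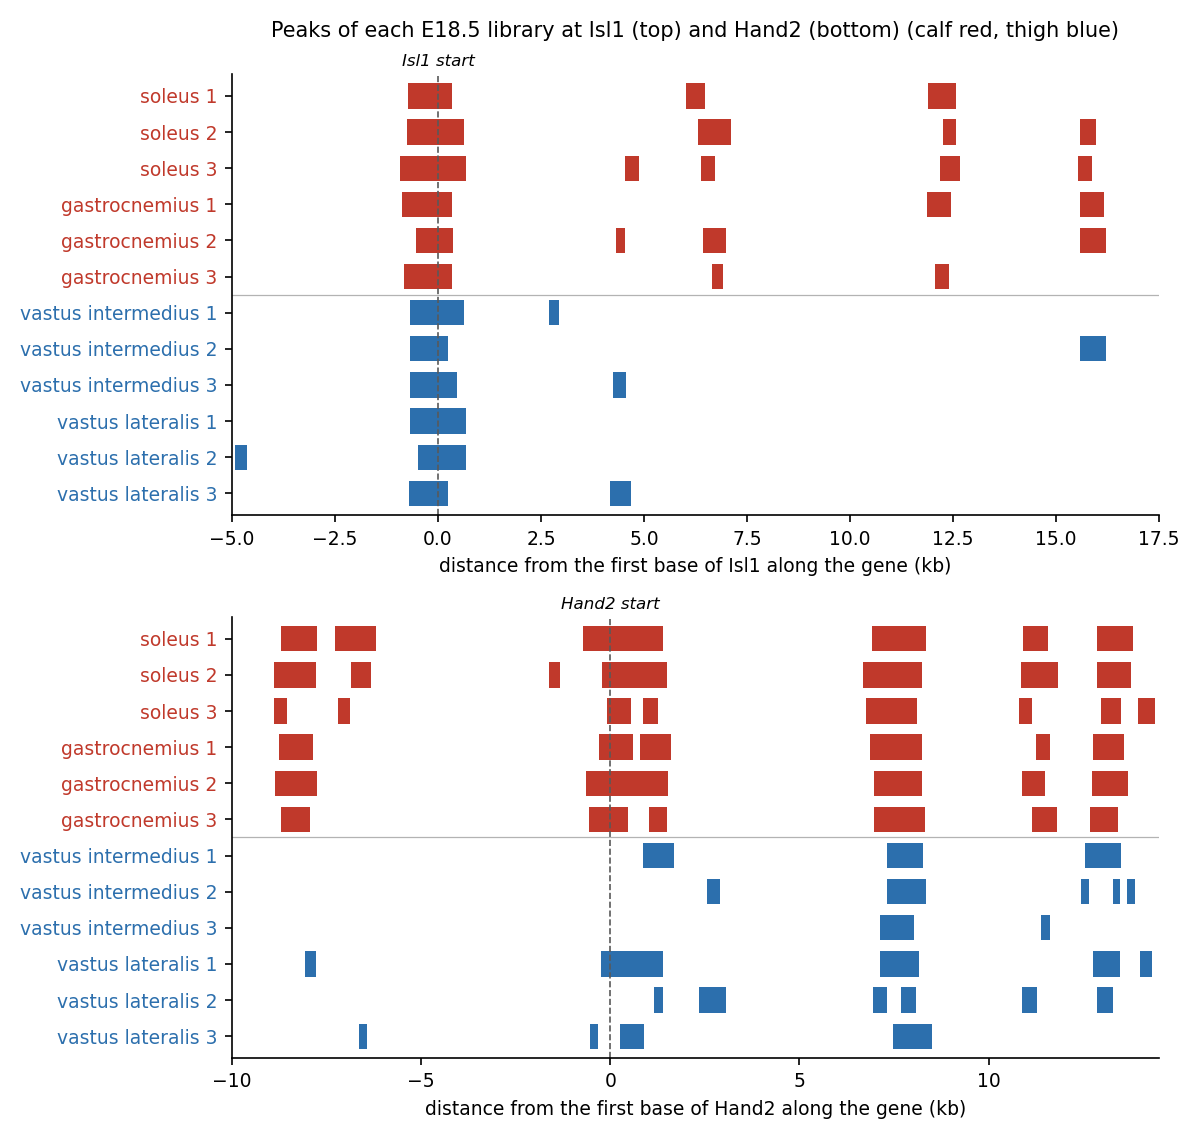
Peaks of the 12 E18.5 libraries at Isl1 (top) and Hand2 (bottom), with distance along the gene from its first base in kb on the horizontal axis and 1 line per library, calf in red above thigh in blue. The Isl1 start is called in all 12 libraries, while calls near 6.574 and 12.268 kb occur in 5 calf libraries each, and the Hand2 start and the site near -8.324 kb are called in 6 calf libraries and in vastus lateralis 1.

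The Grem1 locus held a separated region at its edge, chr2:113768396-113769250, between Grem1 and Scg5. The region lay 7063 bases from Scg5, the nearest gene, with its middle at -10.175 kb relative to the Grem1 start. It was covered by 700, 498 and 547 bases of peak in soleus and 855, 484 and 485 in gastrocnemius, and by 0 in every thigh library. In the adult it was called in 1 of 6 calf and 0 of 6 thigh libraries. The locus had 2 or 3 called regions in calf and 1 or 2 in thigh libraries, with a log2 difference of 0.53 (SE 0.23). This difference rests on the separated region, which lies only in part within the 10 kb flank. The other regions of the locus were called in 6 calf and 6 thigh or in 1 calf and 1 thigh libraries. Gli3 held a region inside the gene at chr13:15472330-15473057, 8.97 kb past its first base, called in 6 calf libraries with 327 to 542 covered bases and in vastus intermedius 2 with 296.

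On the thigh side, Tbx5 (a T-box factor known for starting the forelimb bud) had 7, 16 and 5 called regions in soleus and 15, 10 and 6 in gastrocnemius, against 18, 17 and 9 in vastus intermedius and 15, 12 and 9 in vastus lateralis. The ranges overlapped, and litter 3 was the lowest in each of the 4 muscles. The log2 difference was -0.50 (SE 0.18), with an adjusted limma p of 0.993, or 0.729 with the litter as a block. Inside the gene, chr5:119836851-119837504 was called in 0 calf and 5 thigh libraries, all but vastus intermedius 2. Rarb (a retinoic acid receptor) held a region at chr14:16458866-16459872, again inside the gene, called in 0 calf and 5 thigh libraries, with 347 to 1007 covered bases where called. Both regions were called in 2 adult calf and 2 adult thigh libraries.

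Of 231 testable regions at the limb position loci, 5 (2.16%) were called more often in calf and 2 (0.866%) more often in thigh at an unadjusted Fisher's exact p under 0.05. They are the 7 regions described above at Isl1, Hand2, Grem1, Gli3, Tbx5 and Rarb. Over all 50377 testable regions the shares were 0.734% and 0.439%. No p is given for the list, because its genes were chosen with earlier results of these data known.

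The Hoxc cluster held smaller differences of both signs. Hoxc11 (chr15:102954526-102956701) had 6, 6 and 5 called regions in soleus and 8, 10 and 3 in gastrocnemius, against 3, 7 and 3 in vastus intermedius and 5, 2 and 4 in vastus lateralis, a log2 difference of 0.53 (SE 0.22). Hotair, a long noncoding RNA gene next to Hoxc11, held a region at chr15:102947406-102947750 called in 5 calf and 1 thigh libraries. A region between genes at chr15:102949429-102950155, 4371 bases from Hoxc11, was called in 4 calf and 0 thigh libraries. Hoxc12 held the reverse at chr15:102938248-102939317, called in 0 calf and 4 thigh libraries at E18.5 but in 4 adult calf and 0 adult thigh libraries. Hoxc9 (chr15:102977032-102984444) had 5 called regions in each calf library, against 6, 6 and 6 in vastus intermedius and 8, 6 and 7 in vastus lateralis, a log2 difference of -0.34 (SE 0.15). With flanks of 50 kb in place of 10 kb the Hoxc9 difference was 0.04, so its sign depends on the flank chosen. With 10 kb flanks it came from regions called in 0 calf and 2 or 3 thigh libraries, some in the flanks and some inside the gene. Such regions were kept through their thigh calls alone, and the other regions of the locus were called in all 12 libraries.

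**Figure D3:**
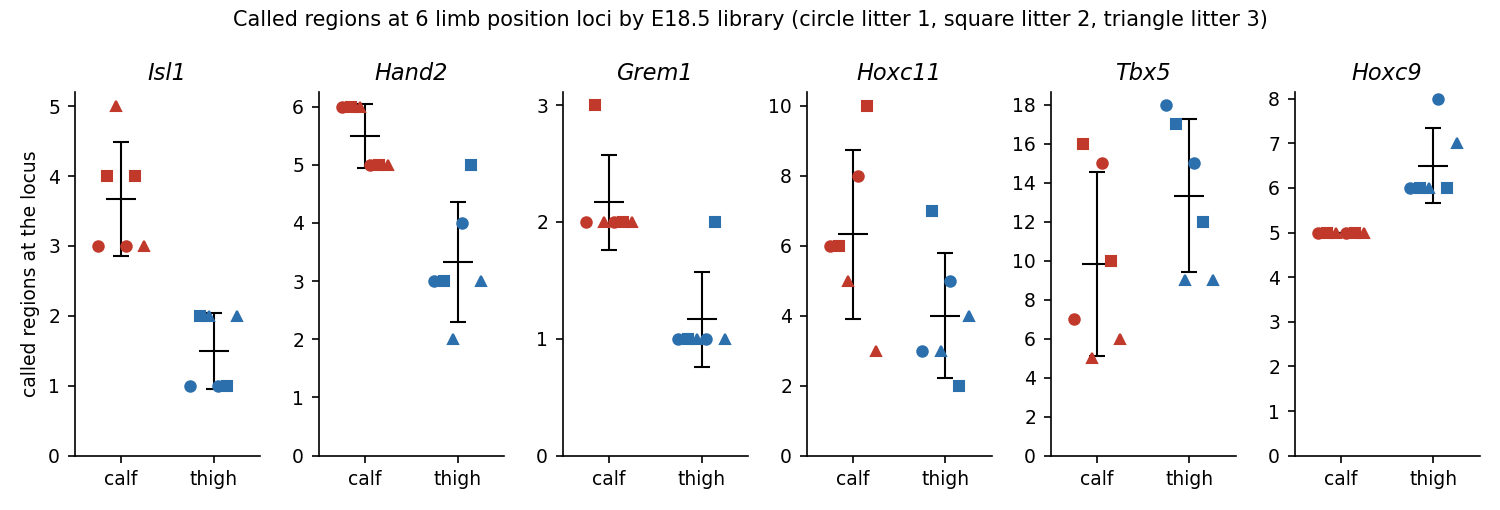
Number of called regions at 6 limb position loci in each E18.5 library, calf in red left of thigh in blue; the marker shape gives the litter and bars the mean and SD of 6 libraries. Isl1 and Hoxc9 do not overlap between sides, in opposite directions, while Hand2, Grem1, Hoxc11 and Tbx5 do overlap.

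Counted whole, the Hoxa, Hoxb and Hoxc clusters differed between the sides by less than the SD of either side. The Hoxa cluster had 25.0 ± 4.38 called regions in calf and 24.3 ± 2.42 in thigh libraries, Hoxb had 27.3 ± 5.79 and 23.5 ± 4.46, and Hoxc had 24.5 ± 4.18 and 23.8 ± 3.60 (SD, n = 6 each). In the 4 clusters and 500 kb on each side of each, 0 regions differed by 5 or more calls with the full lists, and 1 region of the Hoxd cluster did, in favour of calf, with the first 120387 peaks of each list. Windows at Hoxa11 and Hoxa13, which pattern shank and foot, were called in all 12 libraries. Of 39 Hox genes 37 were tested, 1 was higher in calf and 1 higher in thigh at an unadjusted p under 0.05, shares near the 2.35% and 2.08% of all loci. Of the 37 differences 24 were above 0, beside 49.6% of all loci. Neighbouring Hox loci share regions through their flanks, and Hoxa5 and Hoxa6 had the same count in every library. The 37 differences are therefore not separate observations.

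Counted over all 6 limb position lists, 114 loci were tested, 8 were higher in calf and 3 higher in thigh at an unadjusted p under 0.05, beside 2.35% and 2.08% of all loci, and 0 after adjustment. Differences were above 0 at 61.4% of them, with a median of 0.07 on the log2 scale, beside 49.6% and a median near 0 over all loci. These loci include the Hox loci counted above, which share regions. Among proximal limb genes Meis2, a homeobox gene of the upper limb, was higher in calf by 0.28 (SE 0.13). That came from the fast-biased pair, with 21, 18 and 12 regions in gastrocnemius and 11, 9 and 7 in vastus lateralis, while soleus had 11, 11 and 9 and vastus intermedius 14, 14 and 9, an interaction that reached the unadjusted level. Meis3 and Alx4 had log2 differences of -0.35 and -0.29 that did not reach that level, although Meis3 did with the litter as a block.

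Of 13 retinoic acid genes, Crabp1 (a retinoic acid binding protein) was lower in calf by a log2 difference of -0.40 (SE 0.16) at the unadjusted level, while Cyp26a1 (which breaks down retinoic acid) had 0.32 and Rarg -0.25 without reaching it. Of 10 dorsoventral genes, Bmp7 had 18, 20 and 15 regions in soleus and 23, 22 and 19 in gastrocnemius, against 19, 21 and 12 in vastus intermedius and 16, 15 and 11 in vastus lateralis, a difference of 0.29 (SE 0.13) that reached it. The ranges overlapped. Of 18 tested genes of limb mesenchyme and muscle connective tissue, Barx1 (0.39, SE 0.16) and Zfhx4 (0.43, SE 0.18) were higher in calf at the unadjusted level. The list also held Tcf4, here the gene of that symbol at chr18:69343429-69687967 and not Tcf7l2. Its difference was 0.23, which reached that level with the litter as a block but not without it. With 50 kb flanks the Barx1 difference was -0.05.

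Muscle genes gave few differences. Of 15 tested myogenic factors and progenitor genes 0 reached an unadjusted p under 0.05 in either direction, beside 2.35% and 2.08% of all loci, and 12 differences were above 0 with a median of 0.05, beside 49.6% of all loci. Slow fibre genes had 1 locus lower in calf, Atp2a2 (the slow calcium pump of the sarcoplasmic reticulum), with a log2 difference of -0.36 (SE 0.15). Fast fibre genes had 1 locus higher in calf, Myl1 (a fast myosin light chain), with 2, 1 and 1 regions in soleus and 3, 3 and 0 in gastrocnemius, against 2, 0 and 0 in vastus intermedius and 0 in each vastus lateralis library. Its log2 difference was 0.97 (SE 0.39) at E18.5 and -0.55 (SE 0.18, limma adjusted p = 0.647) in the adult, so the sign was the opposite there. Other fast fibre genes, Tnnt3 at 0.27 and Ryr1 at -0.24, did not reach that level.

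Myh8 (the perinatal myosin heavy chain) had 2, 3 and 2 called regions in soleus and 2, 2 and 3 in gastrocnemius, against 2, 1 and 0 in vastus intermedius and 2, 0 and 2 in vastus lateralis, a log2 difference of 0.74 (SE 0.30). Its promoter window was called in 6 calf and 3 thigh libraries, and its flanks overlap those of the neighbouring genes Myh4 and Myh13. Prox1 (a homeobox regulator of slow fibre genes) had 9, 10 and 7 in soleus and 11, 11 and 8 in gastrocnemius, against 9, 8 and 5 in vastus intermedius and 10, 4 and 6 in vastus lateralis, a difference of 0.38 (SE 0.16). The window at its first start was called in all 12 libraries, and that at a later start, chr1:190169466-190169765, in 6 calf and 2 thigh libraries. Vgll3 was lower in calf at the unadjusted level, with -0.47 (SE 0.21). Ppargc1a (a regulator of oxidative metabolism) had 0.38 (SE 0.18) and Lin28b had 0.39 (SE 0.19), and neither reached that level, although both did with the litter as a block. Ppargc1a reached it in 3 of 11 alternative settings. Unc5c (a netrin receptor in axon guidance) at 0.26 did not reach it, with or without the block. Beside these, Ttn of the 7 skeletal muscle markers was higher in calf by 0.43 (SE 0.14) at the unadjusted level. Of the 7 markers 4 had differences above 0, with a median of 0.03. The part of muscle fibre content in these differences was not tested.

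Over all loci, the smallest p in calf belonged to Ubr7, with 3, 6 and 3 called regions in soleus and 4, 5 and 3 in gastrocnemius, against 1, 2 and 1 in vastus intermedius and 2, 1 and 2 in vastus lateralis. Its log2 difference was 0.97 (SE 0.19, limma adjusted p = 0.837). Cdh11 (a cadherin of mesenchymal cells) had 6, 8 and 7 in soleus and 9, 5 and 3 in gastrocnemius, against 3, 4 and 3 in vastus intermedius and 2, 2 and 3 in vastus lateralis, a difference of 0.87 (SE 0.18, limma adjusted p = 0.837). E2f3 (a cell cycle transcription factor) differed by 0.65 (SE 0.15) and Mpped2 (a metallophosphoesterase) by 0.63 (SE 0.16). The remaining calf loci of the first 10 were lncRNA genes, among them Gm28111 at 1.01, and Lincmd1.

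Lincmd1 is a muscle lncRNA gene that hosts miR-206 and miR-133b, microRNAs specific to striated muscle. It had 6, 10 and 5 called regions in soleus and 9, 10 and 9 in gastrocnemius, against 4, 4 and 4 in vastus intermedius and 6, 5 and 6 in vastus lateralis. The groups met only at soleus 1 and 3, which lay within the vastus lateralis range. The log2 difference was 0.61 (SE 0.14, limma adjusted p = 0.993). A region at chr1:20678949-20680227 lies over miR-206 and was called in 4 calf and 1 thigh libraries, and no kept region lay over miR-133b. The mature sequences of their 3′ arms show what the locus makes, with the seed (bases 2 to 8) in capitals (RefSeq, GRCm38.p6, chr1:20679055-20679076 and chr1:20682834-20682855, plus strand).
mmu-miR-206-3p: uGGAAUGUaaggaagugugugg
mmu-miR-133b-3p: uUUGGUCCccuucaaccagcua
The seeds differ, GGAAUGU in miR-206-3p and UUGGUCC in miR-133b-3p.

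Ikzf1 (the lymphoid factor Ikaros) led the loci higher in thigh, with 1, 4 and 2 called regions in soleus and 5, 8 and 3 in gastrocnemius, against 9, 6 and 9 in vastus intermedius and 7, 8 and 8 in vastus lateralis. Its log2 difference was -1.05 (SE 0.20, limma adjusted p = 0.837). Klrb1a (a receptor of natural killer cells) differed by -0.89 (SE 0.22), with 1 to 3 regions in calf and 1 to 6 in thigh libraries. Other thigh loci were Gm6337 at -0.92, Lrrc6 (a ciliary assembly protein) at -0.97, Cela2a (an elastase) at -0.77 and Slc39a6 (a zinc transporter) at -0.74. The marker list of immune cells had 11 tested genes with a median difference of -0.11. Of these, 1 was higher and 2 were lower in calf at an unadjusted p under 0.05, the lower ones being C1qa and C1qb, adjacent genes whose loci overlap. Its summed called regions ranged from 36 to 82 (median 51.5) in calf and from 44 to 71 (median 63.5) in thigh libraries. Ptprc, the pan-leukocyte marker, had 0 called regions in 3 of 6 calf and 3 of 6 thigh libraries. The part of immune cells in the Ikzf1 and Klrb1a differences was not tested.

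Of the 10 other marker lists, adipocytes stood lowest in calf, with a median of -0.20 over 8 genes and summed regions of 21 to 35 in calf and 22 to 38 in thigh libraries, and Retn (resistin) lower in calf at the unadjusted level, by -0.86 (SE 0.31). Tendon markers summed to 36 to 63 regions in calf and 38 to 53 in thigh libraries, and cartilage and bone markers to 60 to 112 and 58 to 96. In the cartilage and bone list Col9a1 was higher in calf by 0.70 (SE 0.29) at that level. Of the 12 tested loci of this list only 6 had differences above 0, with a median of -0.004. Ibsp (bone) and Gata1 (erythroid) were at 0 in every library. Fibroblast, endothelial and Schwann cell sums overlapped between the sides as well.

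Peak width gave a graded value at the 33580 regions called in all 12 libraries. Of these 1034 (3.08%) were wider in calf and 800 (2.38%) wider in thigh at an unadjusted limma p under 0.05, and 0 in either direction (0%) after adjustment, with a smallest adjusted p of 0.352. Without the centring on the library median the split was 1384 against 354, and without litter 2 it was 780 against 504. The smallest p belonged to a region inside Glis1 (a zinc finger transcription factor) at chr4:107483899-107486693, where peaks covered 1420 ± 379 bases in calf and 389 ± 101 in thigh libraries (SD, n = 6 each; log2 difference 1.81, SE 0.26, limma adjusted p = 0.352). A region inside Mthfd1 (a folate enzyme), chr12:76281780-76283378, had 1074 ± 222 and 399 ± 87.9 bases, and was called in 5 adult calf but 1 adult thigh libraries. Regions in Rbpms (an RNA-binding protein) and Hephl1 (a copper oxidase) were wider in calf as well, at 1501 ± 209 against 768 ± 315 and at 1310 ± 239 against 606 ± 204 bases. In the other direction, a region inside Alk (a receptor tyrosine kinase) had 625 ± 263 bases in calf and 1438 ± 163 in thigh libraries, and one at Tmed6 had 569.5 ± 225 and 1107 ± 309.

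Over the genome, the 12 lists merged into 612318 regions, and 293655 of these had a call from at least 2 libraries. In the 50377 regions with enough calls for a test, 14 (0.0278%) were called in 6 calf and 0 thigh libraries and 14 (0.0278%) in 0 calf and 6 thigh libraries. At an unadjusted Fisher's exact p under 0.05 stood 370 regions higher in calf (0.734%) and 221 higher in thigh (0.439%), and 0 (0%) in either direction after adjustment, with a smallest adjusted p of 1. The smallest raw p the exact test allows, 0.00216, belongs to the separated regions. Without litter 2 the unadjusted counts were 169 in calf and 293 in thigh, and without litter 3 they were 732 and 213, so the excess in calf turned round with litter 2 left out.

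The other contrasts of the same 12 libraries gave counts of the same order. Slow-biased against fast-biased muscles had 5 and 21 separated regions and 121 and 306 at the unadjusted level. Soleus with vastus lateralis against gastrocnemius with vastus intermedius, which matches no anatomical division, had 6 and 15 separated and 121 and 281 at the unadjusted level. With the widest 120387 peaks of every list the separated counts were 27 calf and 12 thigh, against 5 and 12 for slow and fast, and 6 and 8 for the last contrast. With the first 120387 peaks they were 26 and 16, 7 and 8, and 9 and 12 in the same order. The calf against thigh split had the most separated regions of the 3 contrasts with the full lists and with either equal number of peaks.

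**Figure D4:**
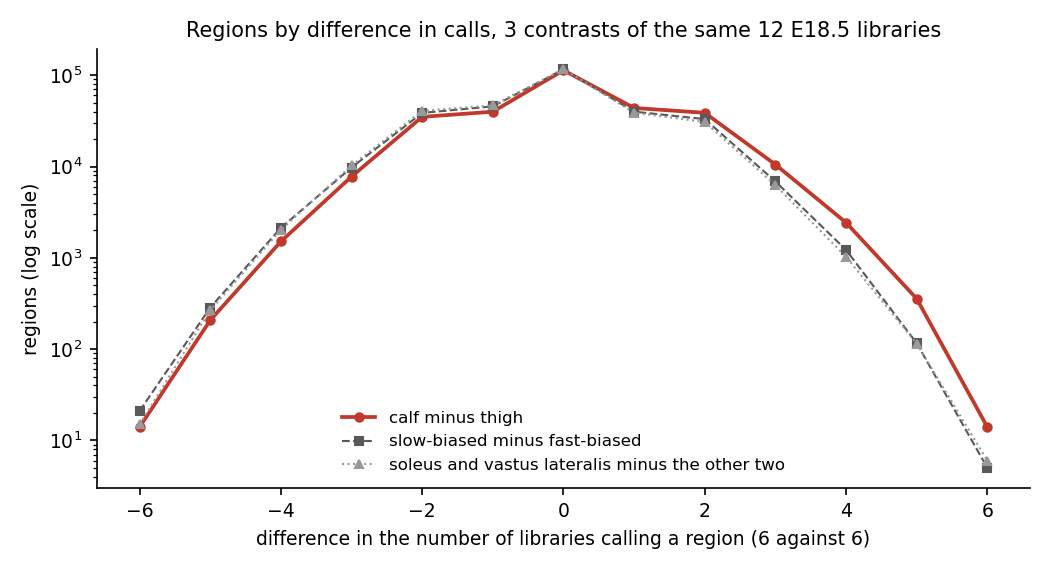
Number of regions (log scale) by the difference in the number of libraries calling them, for 3 contrasts of 6 against 6 of the same E18.5 libraries. The calf minus thigh line (red) has 14 regions at each end, while the slow-biased minus fast-biased line has 21 at -6 and 5 at 6, and the third contrast has 15 at -6 and 6 at 6.

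The separated regions named here are those of the full lists. Of the 14 in calf and 14 in thigh, only 7 and 3 were separated both with the full lists and with equal numbers of peaks. Among separated calf regions, the widest cover was at chr4:89469080-89470508 inside the lncRNA gene Gm12610, with 649 to 1192 bases in calf libraries. Next came chr8:56622523-56623778, 28584 bases from Fbxo8, then chr17:27227680-27229856, 22210 bases from Lemd2, and chr11:76255453-76256424, 802 bases from Nxn (nucleoredoxin). The Grem1 region came after these, followed by regions near Abcg8 and Tarbp1 and inside Gm32130. Among separated thigh regions the widest cover was inside Itprid1 at chr6:55886191-55887080, with 289 to 890 bases in thigh libraries. Regions inside Ptprd, Btbd11 and Kirrel3 (a cell adhesion molecule) followed, with intergenic ones on chromosomes 8, 1, 16 and 3.

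Regions called more often in calf at the unadjusted level numbered 370, of which 57.0% lay inside genes, 33.8% between genes and 9.19% no more than 1 kb from an end of a gene. For the 221 called more often in thigh these shares were 48.4%, 44.8% and 6.79%. Over all tested regions they were 52.9%, 36.8% and 10.4%, and of the regions called by all 12 libraries 42.8% lay near a gene end.

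Libraries of muscles on the same side did not share clearly more calls than libraries across sides. Within litters, the Jaccard index (shared regions over regions called in either) averaged 0.456 for pairs on the same side and 0.454 for pairs across sides, a difference of 0.00201 (exact permutation test, one-sided, p = 0.259, with 0.037 as its lower limit). With the same number of widest peaks the difference was 0.00678 (exact permutation p = 0.0741). In litter 1 the same-side and cross-side values were 0.507 and 0.513, in litter 2 they were 0.460 and 0.449, and in litter 3 both were 0.400.

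Whether the calf against thigh difference depended on fibre bias was tested at all loci with the same limma fit. For (soleus minus vastus intermedius) minus (gastrocnemius minus vastus lateralis), 464 loci were above and 531 below 0 at an unadjusted p under 0.05, and 0 after adjustment. Hand2, Meis2 and Unc5c were among those at the unadjusted level, and the smallest adjusted limma p was 0.999.

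Adult libraries took no part in choosing the E18.5 regions, so they test whether the same sites differ later. Of the 14 separated calf regions, adult calf libraries called 42.9 ± 11.1% and adult thigh libraries 39.3 ± 16.1% (SD, n = 6 each). Of the 14 separated thigh regions they called 28.6 ± 13.6% and 20.2 ± 7.02%. The difference between the region sets, compared between adult calf and adult thigh libraries, was -4.76 percentage points (two-sided exact permutation p = 0.786), and ranged from -23.2 to 8.93 with each adult animal left out. At the 370 and 221 regions of the unadjusted level, adult calf and adult thigh libraries called 27.5 ± 4.41% and 27.7 ± 5.16% of the calf regions, and 32.7 ± 6.09% and 30.5 ± 7.44% of the thigh regions (difference -2.37 points, exact permutation p = 0.426). The E18.5 difference was not seen in these adult libraries at the regions as a set.

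**Figure D5:**
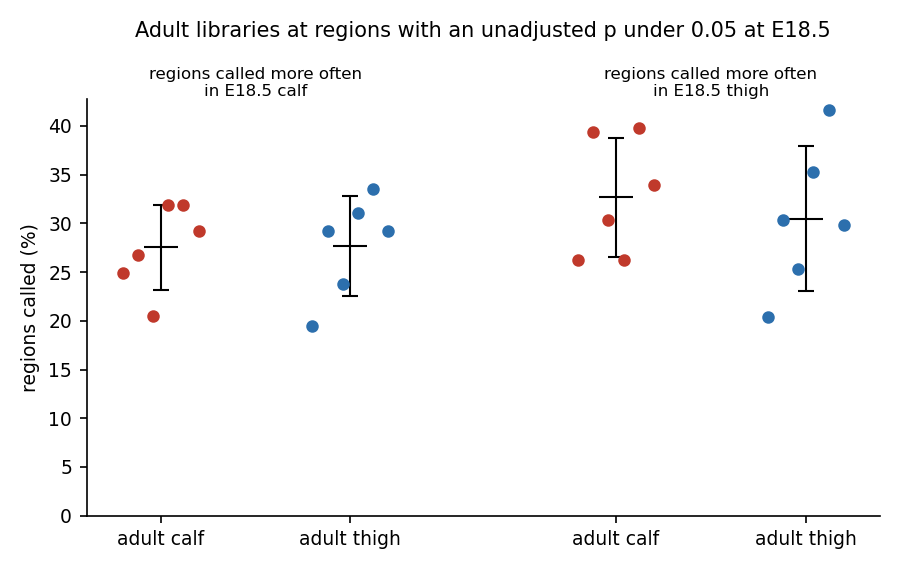
Share of the E18.5 regions at an unadjusted p under 0.05 that each adult library called, in percent, for regions higher in calf (left) and in thigh (right) at E18.5; points are adult libraries, calf in red left of thigh in blue, and bars the mean and SD of 6. Adult calf and adult thigh libraries overlap for both region sets.

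Gene loci gave the same picture. Of 544 loci higher in calf at E18.5 at the unadjusted level and tested in the adult, 52.4% were higher in adult calf, as were 51.4% of 506 loci higher in thigh at E18.5. Over all 24507 loci tested at both stages the share was 46.4%. Hand2, described above, was higher in calf at both stages at the unadjusted level.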

How the data were processed

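Open chromatin was profiled by ATAC-seq in 24 libraries, and the 12 E18.5 ones were compared as 6 calf against 6 thigh libraries. The authors deposited 1 peak list per library with chromosome, start and end on mm10, per the file contents, and no count, score or signal. Per the submitters' processing notes, reads were handled with MACS2 2.1.1, bedtools 2.25.0, Bowtie2 2.4.4, Trimmomatic 0.39.0, FastQC 0.11.5, Picard and SAMtools 1.14.0. Calling thresholds and depth in reads were not given in those sources, so the depth is unknown and no counting error is stated.

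Peaks of the 12 lists were merged where they overlapped by at least 1 bp, and those with calls from 2 or more libraries were kept (median width 744 bp). Calls were compared per region by a two-sided Fisher's exact test, adjusted by Benjamini-Hochberg over regions whose number of calls allowed p under 0.05. Gene loci (34614 RefSeq genes of GRCm38.p6, 10 kb flanks, 3 or more regions, a mean of at least 1 called region) and peak widths were tested with limma 3.58.1 in R 4.3.3 (trend, robust), with a pseudocount of 1 for loci. Values were centred on the library mean (loci) or median (widths), which takes out list length. Single values were compared by exact permutation tests over libraries in Python 3.11.15 with numpy 2.4.6, pandas 2.3.3 and scipy 1.17.1. The threshold was 0.05. Promoter windows came from a RefSeq table and their comparison was added after the data had been seen.

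The members, the 23 gene lists (341 genes, of which 341 matched) and the tests were chosen with earlier results of these data known. Named genes were the Hox clusters, up to 3 loci per direction of each limb position list, up to 2 of each muscle list, up to 10 over all loci, up to 8 separated regions and up to 6 widths per direction. Single loci from the lists were named only at an unadjusted p under 0.1. Loci whose counts do not overlap were named after their values had been seen. Litters gave all 4 muscles, per the labels, so the litter number pairs libraries. Deviations from muscle means correlated at 0.113 on average between libraries of the same litter and at -0.056 between litters.

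On simulated data the locus test recovered 49 of 100 loci at a log odds change of 1.5 and 96 of 100 at 3, and called 9 of 25621 loci that shared no region with a changed one. The width test recovered 122 of 200 regions changed by 1 on the log2 scale and called 9 of 33380 others, both at an adjusted p under 0.05. The window test, at the unadjusted level, recovered 172 of 200 windows with a chance of a peak of 0.95 in calf and 0.05 in thigh. It called 12 of 32651 other windows higher in calf. That is a nearly complete separation, so recovery of smaller differences was not tested. The loci changed in the simulation all held more regions than Isl1, Hand2 or Grem1, and calls were drawn without a litter effect. Recovery at loci with so few regions was therefore not tested either. Alternatives were equal numbers of the widest or first peaks of each list, a call needing 50% of a region, other filters, flanks and pseudocounts, no centring, the litter as a block and each litter left out. Sequences of peaks are not shown, since no genome was used here. Some single marker genes are not reported here.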

Additional observations from a re-analysis of the deposited data

Results flagged for a closer look

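In 108 groups of 6 libraries the highest or lowest value was set against the others by Dixon's test, which by chance marks about 1 group in 20. It marked 10 values. At Hoxd12, soleus 2 had 204 covered bases in the promoter window, against 0 in the other 5 calf libraries, and vastus lateralis 2 had 1631 within 1 kb of the start, against 985 to 1143 in the other thigh libraries. At Hand2, soleus 3 had 136 covered bases in the promoter window, against 274 to 300 in the other calf libraries, and vastus lateralis 1 had 291, against 0 in the other thigh libraries.

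Called regions at loci gave the remaining values. At Grem1, soleus 2 had 3, against 2 in each other calf library, and vastus lateralis 2 had 2, against 1 in each other thigh library. At Myl1, vastus intermedius 1 had 2, against 0 in the other thigh libraries. At E2f3 the same library had 8, against 5 to 6, and at the lncRNA gene Gm41795 it had 6, against 9 to 10. At Slc39a6, vastus lateralis 3 had 4, against 6 to 7 in the other thigh libraries. Soleus 2, with 228137 peaks, was the longest list. The part of list length in these values was not tested.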

How the results depend on the processing

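No adjusted count of regions, loci, widths or promoter windows left 0 in any alternative run. Leaving out 1 litter at a time leaves 4 against 4 libraries, where only a complete separation passes 0.05, so the counts of separated regions and of those at the unadjusted level coincide. They ranged from 169 to 732 in calf and from 213 to 293 in thigh, with 169 without litter 2 and 732 without litter 3. Separated calf regions numbered 23 when a call needed 50% of the region, 27 with the widest and 26 with the first peaks of each list. Separated thigh regions numbered 4 with the 50% rule, which left 80 thigh regions at the unadjusted level. With the litter as a stratum, regions stayed at 370 and 221 and promoter windows at 21 and 2. These counts could not change, since each litter holds as many calf as thigh libraries. The stratified exact test then passes the same splits of calls as the unstratified one, so it says nothing on the part of the litter. With the litter as a block, loci numbered 819 and 725 with a smallest adjusted limma p of 0.476 and widths 1269 and 1044. Of the named loci, Meis3, Tcf4, Lin28b and Ppargc1a reached an unadjusted p under 0.05 with the block but not without it, and the block moved no other named locus across that level.

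Without litters in turn, loci higher in calf ranged from 395 to 701 and widths higher in thigh from 504 to 1197, each lowest without litter 2. Without centring, loci higher in thigh numbered 225 and widths 354. Promoter windows ranged from 10 to 29 in calf and from 1 to 6 in thigh over the litters left out, with 10 in calf without litter 2, and thigh windows numbered 5 with the first peaks. List length differences ranged from -15865 to 13103 peaks and reversed without litter 3. The similarity difference ranged from -0.00208 to 0.00732 and reversed without litter 2. The adult difference was 4.76 points with the first adult peaks and ranged from -23.2 to 8.93 points with each adult animal left out, being 0 without animal 2.

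Of 46 named loci, 5 changed sign in 1 alternative each. With 50 kb flanks Barx1 was at -0.046, Gm32485 at 0.095 and Hoxc9 at 0.036. Tnnt3 ranged from -0.013 to 0.399 over the litters left out and was below 0 without litter 2, and Ryr1 was at 0.011 with the 50% rule. The causes were not tested. The limits are those of calls: read depth is unknown, list lengths ran from 120387 to 228137, and loci with few regions give coarse values.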
